A study of Homo sapiens with 2 samples.

Results

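The genes described are 9 growth arrest and feedback genes of the p53 pathway, MDM2, MDM4, CDKN1A, GADD45A, SFN, BTG2, GDF15, CCNG1 and RRM2B. They were chosen by name from knowledge of the pathway, with earlier results of these data known, and every array feature carrying one of these names was taken. This gave 40 of the 45033 features, and 9 of the 23595 genes named on the array. A feature is a set of 3 probes designed for a transcript record. The study asked which genes PAX2 activates in TE-1, an established human oesophageal carcinoma cell line. Cells were transfected with the empty vector pcDNA3.1 (the control vector array) or with pcDNA3.1 carrying PAX2, a paired-box developmental transcription factor (the PAX2 vector array), and total RNA was taken 24 h later. Both groups went through transfection with the same backbone. Neither untransfected cells nor an agent that activates p53 is named in the labels, and the labels do not give the p53 status of the line or the share of cells that took up the vector. Each group is 1 array, so replicate error is unknown and no p-value is given; the number of arrays limits the precision.

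p53 is a transcription factor that is kept scarce in unstressed cells and accumulates after DNA damage and other stresses. MDM2, a ubiquitin ligase, marks it for degradation, and the related MDM4 binds and blocks its transactivation domain. When p53 accumulates it switches on genes that halt the cell cycle, among them CDKN1A (the CDK inhibitor p21), SFN (14-3-3 sigma), GADD45A and BTG2, and it also switches on MDM2, which closes a negative feedback loop. In squamous epithelium SFN is also an abundant, differentiation-associated protein, so its level is not set by p53 alone.

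MDM2 has a promoter inside its first intron that answers to p53, and its sequence is shown because MDM2 is the feedback gene of the set. Promoter sequences are those of RefSeq on GRCh38.p14, and windows reach from 250 bases before a transcript start to 50 bases after it. The search covered 11 windows of 7 of the 9 genes, and it included no window of GADD45A or RRM2B. The first line is the stretch before the start of the internal promoter, chr12:68808767-68809016 on the plus strand. Capitals mark matches of 20 bases to the p53 consensus binding site with at most 3 mismatches; the consensus reads the same on both strands. The second line is the match in the window of GDF15, chr19:18386186-18386205 on the plus strand, and lies 29 to 48 bases into the transcript, counted from 1 at its first base.
MDM2 internal promoter: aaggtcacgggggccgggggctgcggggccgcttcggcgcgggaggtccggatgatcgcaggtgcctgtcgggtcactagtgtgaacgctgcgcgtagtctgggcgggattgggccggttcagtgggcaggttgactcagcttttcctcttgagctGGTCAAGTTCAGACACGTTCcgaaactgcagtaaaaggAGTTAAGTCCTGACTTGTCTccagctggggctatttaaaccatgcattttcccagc
GDF15 match: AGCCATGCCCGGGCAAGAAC
The MDM2 matches run from -94 to -75, with 2 mismatches, and from -56 to -37, with 3. Of all 35116 promoter windows of this length 5.20% held a match, and 0.313% held at least 2 matches that may overlap. Of the 11 windows 3 held a match: that of GDF15 and 2 overlapping windows of the internal MDM2 promoter, which share the matches shown. The others, those of the upstream MDM2 promoter and of CDKN1A among them, held none, which says only that this pattern is not in these windows. A match describes letters and not a bound site.

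Over all features the median intensity was 205 (control vector array) and 210 (PAX2 vector array), against 20.6 and 19.3 for random-sequence probes. A gene or feature was counted as measured if its log2 intensity was at or above the median feature of either array. The files hold no detection call, so the 95th percentile of 375 olfactory receptor genes, which an epithelial line mostly keeps silent, served as a floor (intensity 134 on the control and 142 on the PAX2 vector array). Values at or below it are called within the silent range. PAX2 itself lay near the random probes on both arrays in its only feature (22.2 and 22.1), so the label of the PAX2 vector array has no support from that transcript. Of 9 squamous and epithelial markers 6 were measured, but the epithelial adhesion genes EPCAM and CDH1 were not measured on either array. All 9 together had summed intensities of 78946 (control vector array) and 95503 (PAX2 vector array). Of these sums SFN, itself a gene of the set, gave 30484 and 37724. None of 6 blood cell markers, HBB among them, and none of 5 endothelial markers was measured. Of 7 fibroblast markers 3 were measured, and 3 were within the silent range on both arrays. All 7 together had summed intensities of 23122 and 28242, mostly from FBLN1. Its log2 intensity was 14.4 and 14.7, beside 9.52 and 9.98 for COL1A1, the next brightest. The cultures are of the TE-1 line, and whether other cells played a part in any difference was not tested. In bulk RNA fewer cells of a type and less RNA per cell cannot be told apart.

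Of the genes that were brighter on the mean over features, CDKN1A, GADD45A and BTG2 differed little between the arrays, and SFN was 1.24-fold higher on the PAX2 vector array. The 2 measured features of CCNG1 were 1.25-fold and 1.22-fold lower on the PAX2 vector array. None of the 9 genes differed 2-fold on the mean over its features. Without the filter 755 of all 23595 genes were 2-fold higher and 960 lower, so this count is near the background. All 9 computed means lay within 1.5-fold. For the 5 measured genes the like share is the 92.3% of all measured genes within 1.5-fold, so their count is near the background too. For genes below the filter no such share is given. The means of MDM2, MDM4 and RRM2B lay within the silent range on both arrays, so no fold of the gene is given for these. Of the 5 measured genes (CDKN1A, GADD45A, SFN, BTG2 and CCNG1) none was 2-fold higher, where 1.13% of all 11628 measured genes were, and none was 2-fold lower, where 1.16% were. At these shares a count of 0 among 5 genes is near the background and is not a result about these genes. Their differences, log2 of the PAX2 vector array minus log2 of the control vector array, ran from -0.12 for CDKN1A to 0.31 for SFN with a median of 0.12, beside a median of 0.02 over all measured genes. CCNG1 entered with 0.20 through 1 feature within the silent range on both arrays. Over its measured features it had -0.31, which makes it the lowest of the 5 and leaves SFN, BTG2 and GADD45A above 0.

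At the level of features the picture depended on brightness. Of the 40 features 21 were measured. Of these 1 was 2-fold higher as computed, where 1.66% of all 22705 measured features with a gene name were, and 0 were 2-fold lower, where 1.43% were. The 1 feature was BC067299 of MDM4, which passed the filter only through the PAX2 vector array; against the floor of the control vector array it was at least 1.97-fold higher, so the count says nothing of the members. The 22 features that lay above the silent range on both arrays were all within 1.5-fold, with differences from -0.33 to 0.58 and a median of 0.06. Among all 23228 such features with a gene name 91.7% lay within 1.5-fold. The 4 of all 40 features that reached 2-fold, 3 higher and 1 lower, each lay within the silent range on at least 1 array. The share of all 45033 features past 2-fold without the filter is not given here, so this count is not a result about the members.

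**Figure D1:**
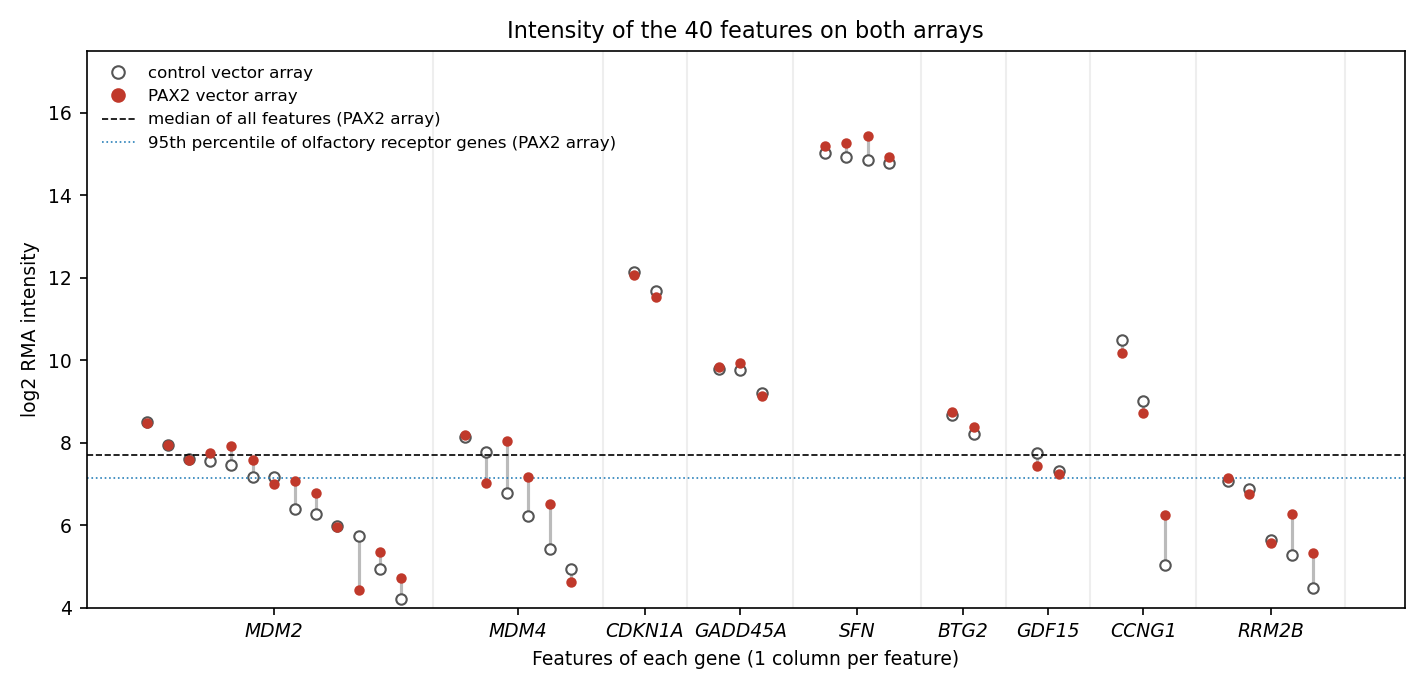
Log2 RMA intensity of the 40 features of the 9 genes on the control vector array (open circles) and on the PAX2 vector array (filled circles), 1 column per feature, ordered within a gene by the control value. Long connecting lines are found among the dim features near or below the dotted line at the 95th percentile of olfactory receptor genes, whereas CDKN1A, GADD45A and BTG2 have nearly coincident circles.

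Differences scattered more widely among dim features. In the third decile of brightness the central 95% of differences ran from -1.97 to 1.79, and in the tenth from -0.43 to 0.57. Of the 40 features 1 lay outside the central range of its own decile, the SFN feature BC023552 (0.58). Features of one gene share a target and are not replicates of a condition. The SD between measured features of a gene was 0.31 over the 6174 genes that had at least 2 of them, and 0.43 over 7 such genes of this set.

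**Figure D2:**
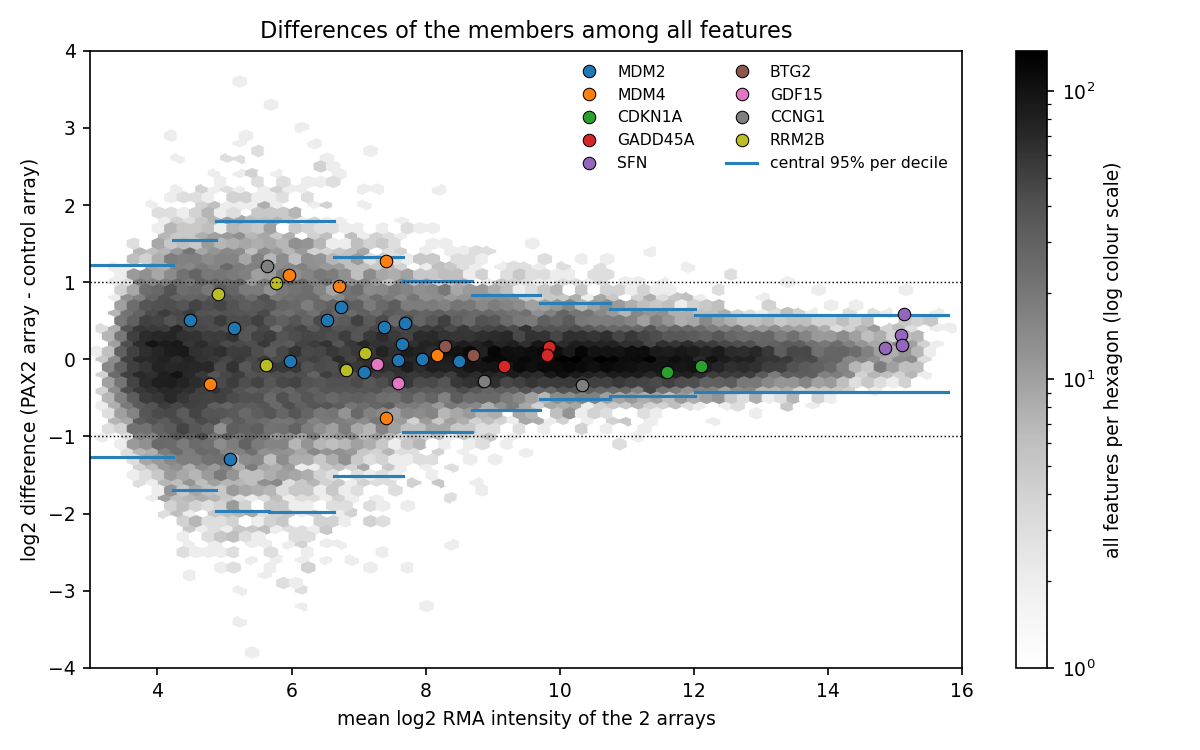
Log2 difference (PAX2 vector array minus control vector array) of all 45033 features against their mean log2 intensity, shaded by number of features, with the features of the 9 genes as coloured points and the central 95% of each brightness decile as blue lines. Of the 40 points 1 lies outside the blue lines, an SFN feature in the brightest decile at 0.58.

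CDKN1A encodes p21, which inhibits cyclin-dependent kinases and is the main arrest effector of p53 (HG18 chromosome 6, 36754464 to 36763087). Feature NM_000389 had an intensity of 3292 on the control vector array and 2946 on the PAX2 vector array, and NM_078467 had 4545 and 4285. Both features were slightly lower on the PAX2 vector array, by less than the spread of differences at their brightness. The mean difference was -0.12 ± 0.05 (SD over 2 features), a 1.09-fold lower value. The records of both features span the same coordinates, and the files do not give probe positions.

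GADD45A, a stress sensor that binds PCNA and p21 and takes part in the G2 checkpoint, had 3 features on HG18 chromosome 1 (67923470 to 67926607). Their intensities on the control and PAX2 vector arrays were 872 and 974 for BC011757, 882 and 919 for DQ008445, and 595 and 563 for NM_001924. The first and second were slightly higher on the PAX2 vector array and the last slightly lower. The mean difference was 0.05 ± 0.12 (SD over 3 features), so the features disagreed by more than the mean.

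BTG2, an antiproliferative protein that recruits the CCR4-NOT deadenylase to mRNAs, had 2 features on HG18 chromosome 1 (201541286 to 201545353). BC105949 had intensities of 408 on the control and 426 on the PAX2 vector array, and NM_006763 had 295 and 334. Both were a little higher on the PAX2 vector array, with a mean difference of 0.12 ± 0.08 (SD over 2 features). That is 1.09-fold.

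SFN, the 14-3-3 protein that holds CDK1 and cyclin B1 in the cytoplasm after damage, was higher on the PAX2 vector array in every feature. On HG18 chromosome 1 (27062215 to 27063535) its 4 features gave, on the control and PAX2 vector arrays, 31364 and 39186 (BC000995), 33124 and 37628 (BC001550), 29367 and 43952 (BC023552), and 28304 and 31250 (NM_006142). The differences ran from 0.14 to 0.58, and the mean difference was 0.31 ± 0.20 (SD over 4 features), or 1.24-fold. The records overlap over nearly their whole length, so the features may measure the same stretch. The 5 other measured squamous and epithelial markers were also higher: KRT5 by 0.72, KRT8 by 0.29, DSP by 0.25, KRT18 by 0.21 and KRT14 by 0.17. The 3 markers below the filter had lower values on the PAX2 vector array, with computed differences of -0.40 for KRT6A, -0.30 for EPCAM and -0.17 for CDH1. The 3 measured fibroblast markers had differences from 0.09 to 0.46, and the part of these markers in the difference of SFN was not tested. After quantile normalization the difference of SFN was 0.20, and in its brightest feature, BC023552, it was 0.58. The brightest feature is the one with the highest mean log2 intensity of the 2 arrays. BC023552 led only through the PAX2 vector array, since BC001550 and BC000995 were brighter on the control vector array. Its 0.58 is therefore no separate support for a higher SFN.

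CCNG1, cyclin G1, is a p53 target that recruits phosphatase PP2A to MDM2. Its 3 features on HG18 chromosome 5 (162797154 to 162807777) did not go the same way. BC007093 had intensities of 1445 on the control and 1151 on the PAX2 vector array, and NM_004060 had 517 and 424, which are 1.25-fold and 1.22-fold lower. BX538035, whose record extends farthest at the 3′ side, had 32.8 and 75.9, within the silent range on both arrays, so no fold is given. The mean over all 3 features was 0.20 ± 0.88 (SD), but over the measured features alone it was -0.31 and in the brightest feature -0.33. The sign of the gene's difference thus turned with the 1 dim feature.

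MDM2 (HG18 chromosome 12, 67488246 to 67520481) had 13 features, more than any other gene of the set, and did not pass the filter on the mean over them. On the control vector array they ran from 18.7 to 362, and on the PAX2 vector array from 21.7 to 357. Features designed for different records of this gene therefore differed widely in signal on the same array. The mean difference was 0.13 ± 0.51 (SD over 13 features), with 8 features above 0 and 5 below. The 4 measured features had intensities on the control and PAX2 vector arrays of 362 and 357 (AF092844), 245 and 246 (AF385322), 175 and 243 (AF385325), and 188 and 216 (NM_002392, the record of the reference transcript). AF385325 was 1.39-fold higher on the PAX2 vector array and the other 3 within 1.15-fold. However, AF385325 and NM_002392 passed the filter only through the PAX2 vector array. The 1 MDM2 feature past 2-fold, NM_006880, had 53.1 and 21.7, both within the silent range, so no fold is given.

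The MDM2 records begin either between 67488246 and 67488510 or between 67489258 and 67489273 on HG18. The 6 features of the earlier group had a median difference of 0.31 and the 7 of the later group one of 0.01. The mean differences had the reverse order, 0.08 for the earlier and 0.17 for the later group. Only 2 features of each group were measured. Within the silent range lay 3 of the earlier group on each array. Of the later group 3 lay within it on the control and 4 on the PAX2 vector array. Both groups overlapped, from -1.29 to 0.68 and from -0.16 to 0.51, and each held 4 features above 0. This grouping was made after the values were seen, and without probe positions a feature cannot be assigned to transcripts of either promoter.

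MDM4 (HG18 chromosome 1, 202752134 to 202862753) had 6 features that disagreed in direction. BX640923, its brightest, had intensities of 281 on the control and 293 on the PAX2 vector array and was level (1.04-fold). BC067299 had 110 and 265, BC105106 had 75 and 144, and CR749470 had 220 and 130. The first of these was at least 1.97-fold higher, BC105106 at least 1.07-fold higher and CR749470 at least 1.55-fold lower on the PAX2 vector array, each against the floor of the array on which it was within the silent range. AY923176 (43.0 and 91.3) and NM_002393 (30.6 and 24.6) were within the silent range on both arrays. The mean difference was 0.38 ± 0.84 (SD over 6 features), and the gene did not pass the filter; in the brightest feature the difference was 0.06.

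By where their records end, the MDM4 features gave the following values. The 3 features whose records end between 202785475 and 202785528 (AY923176, BC067299 and BC105106) had computed differences from 0.94 to 1.27, and all 3 were within the silent range on the control vector array. The 3 whose records end between 202789951 and 202862753 (BX640923, CR749470 and NM_002393) had differences from -0.76 to 0.06. Of these 6 features only BX640923 was above the silent range on both arrays, so the computed differences of the other 5 are not reliable sizes. The grouping was made after the values were seen, and features of a set may share probes. All 6 differences lay inside the central 95% for their brightness.

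**Figure D3:**
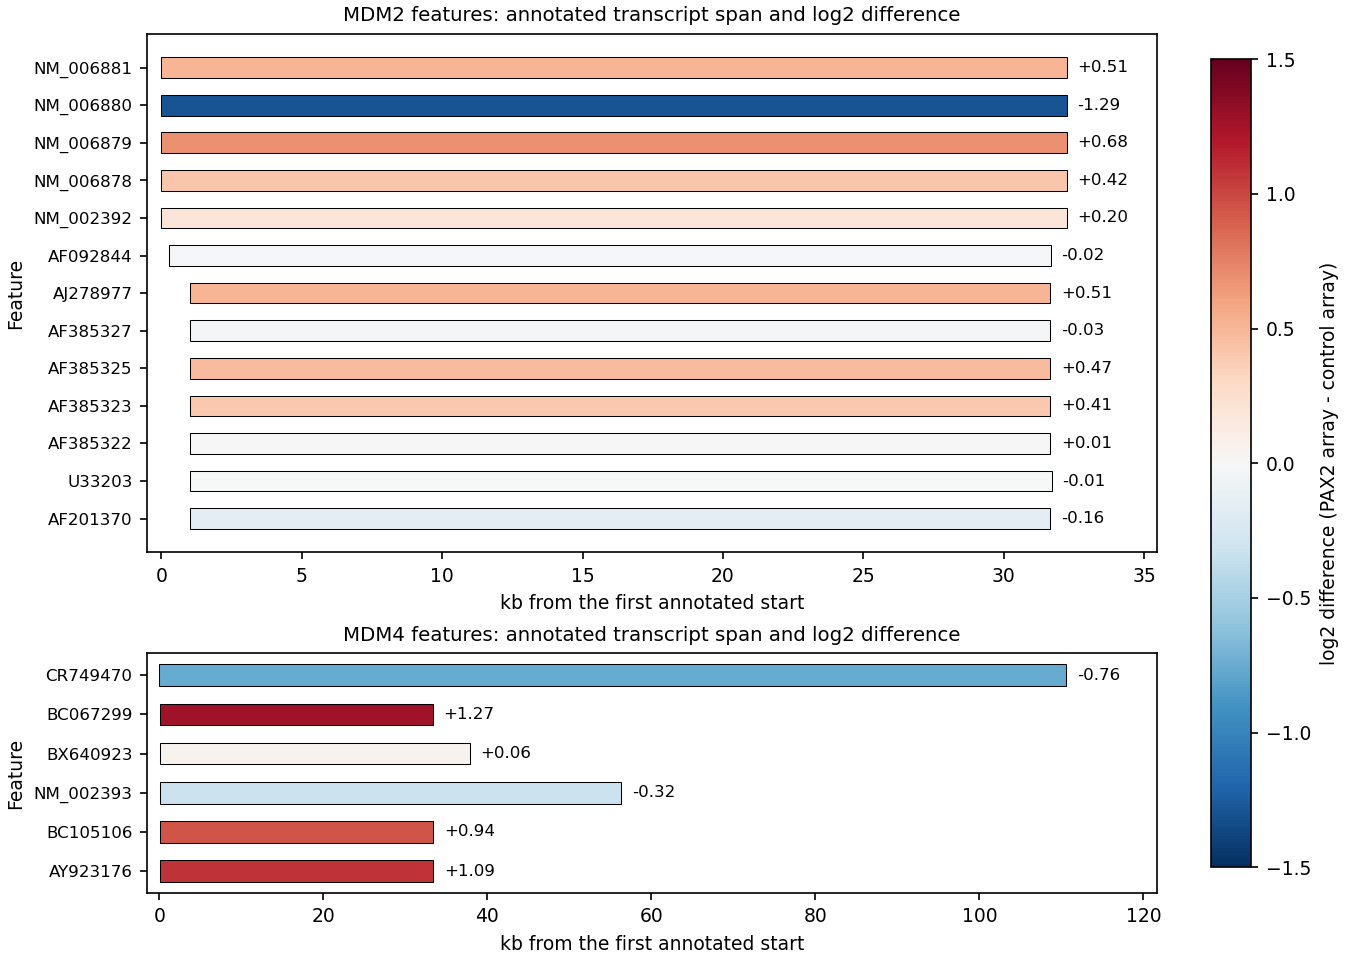
Annotated span of the transcript record behind each feature of MDM2 (above) and MDM4 (below), in kb from the first annotated start, coloured and labelled by the log2 difference (PAX2 vector array minus control vector array). Differences are as computed: of the MDM4 features only BX640923 (0.06) was above the silent range on both arrays, and MDM2 features whose records have the same span range from -1.29 to 0.68.

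GDF15, a secreted stress cytokine of the TGF-beta superfamily that p53 induces, was close to the floor. On HG18 chromosome 19 (18357982 to 18360986) BC008962 had intensities of 158 on the control and 152 on the PAX2 vector array, and NM_004864 had 214 and 173. Both were lower on the PAX2 vector array, 1.04-fold and 1.24-fold, and both were above the silent range on both arrays. The mean difference was -0.19 ± 0.18 (SD over 2 features), and the gene did not pass the filter.

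RRM2B, the p53-inducible small subunit of ribonucleotide reductase that supplies deoxynucleotides for DNA repair, was not measured in any of its 5 features (HG18 chromosome 8, 103285906 to 103320522). All 5 were within the silent range on both arrays, with intensities from 22.4 to 134 on the control and from 40.2 to 141 on the PAX2 vector array. Their computed differences ran from -0.14 to 0.99, with 3 above 0 and 2 below. No fold is given for this gene, and a difference was not detectable at this signal.

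**Figure D4:**
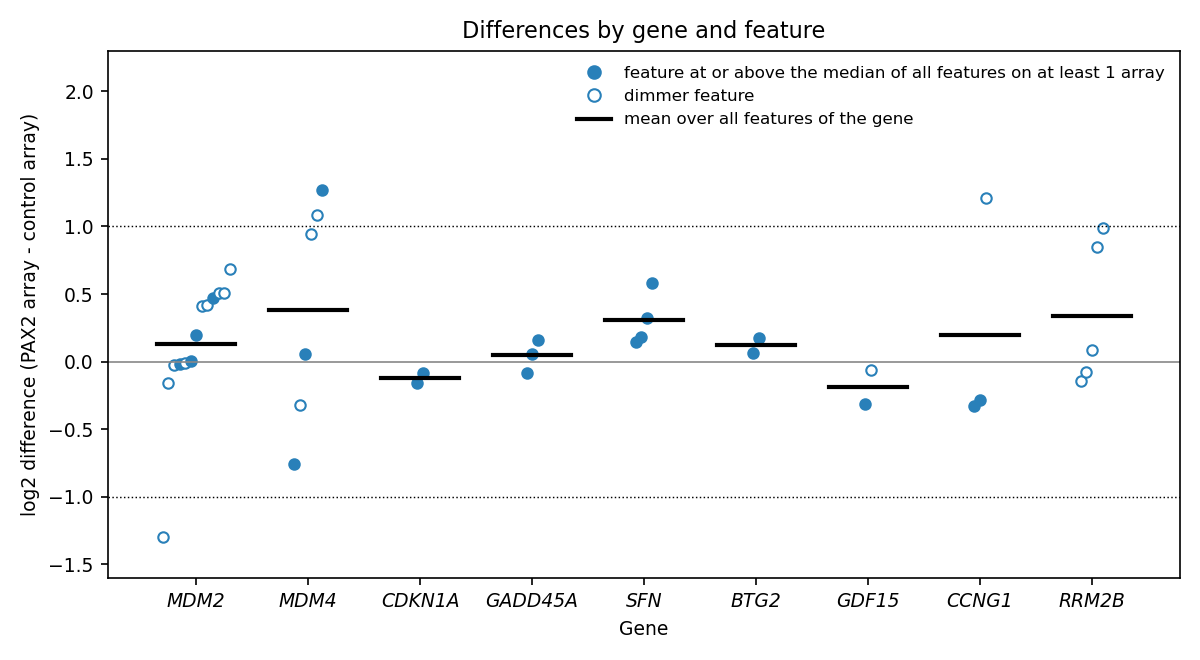
Log2 difference (PAX2 vector array minus control vector array) of each feature by gene; filled points are features at or above the median feature of either array, open points are dimmer, bars are means over all features of a gene, and dotted lines mark 2-fold. All 9 bars lie between -0.19 and 0.38, and 3 of the 4 points beyond 2-fold are dim features of MDM2, MDM4 and CCNG1.

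The wider p53 pathway was described through 7 lists of other genes taken from textbook knowledge, holding 101 distinct genes. On the array 81 of them were measured, and none differed 2-fold, where 1.13% of all measured genes were 2-fold higher and 1.16% lower, so the count is near the background. Differences of 43 were above 0 and of 38 below, and their median was 0.02, the same to this precision as that of all measured genes. In each list the genes with the largest difference each way are named.

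Among 11 measured apoptosis targets the median was -0.06, with 4 above 0. The death receptor FAS had the largest difference (0.44; intensity 169 on the control and 229 on the PAX2 vector array), and SIVA1, a proapoptotic adaptor, the lowest (-0.31; 4582 and 3704). For 10 measured targets in metabolism, antioxidant defence and DNA repair the median was 0.04, from CPT1C, a carnitine palmitoyltransferase of the brain, at -0.36 to the translesion polymerase POLH at 0.46 (522 and 716). The 12 measured targets in feedback and signalling had a median of 0.05, from the phosphatase DUSP5 at -0.22 to the decoy receptor TNFRSF10C at 0.31. All 33 values in these target lists lay within 1.5-fold, as did 92.3% of all measured genes. FAS passed the filter only through the PAX2 vector array, and CPT1C only through the control vector array.

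Upstream regulators of p53 were measured in all 18 cases, with a median of 0.06 and 10 above 0. CREBBP, an acetyltransferase and p53 coactivator, had the largest difference (0.57; intensity 224 and 334), with 0.39 and 0.76 in its 2 features, and the damage kinase ATR the lowest (-0.31; 514 and 414). The 18 cell cycle genes that p21 and the DREAM repressor complex shut down were also all measured and had a median of 0.09, with 12 above 0. TOP2A, a topoisomerase of mitotic chromosomes, was highest (0.46) and the kinase CDK1 lowest (-0.43, from -0.49 to -0.33 over its 3 features). These genes thus showed no common direction.

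Among 12 measured relatives of the members the median was -0.06. YWHAG, 14-3-3 gamma and a relative of SFN, was 1.79-fold higher in its 1 feature (intensity 1683 on the control and 3012 on the PAX2 vector array), while the other 14-3-3 genes of this list, which leaves out SFN, lay between -0.16 for YWHAQ and 0.04 for YWHAZ. RRM1, the large subunit of ribonucleotide reductase, had the lowest difference (-0.22; 5493 and 4722). Of the p53 relatives TP73 was measured, just above the silent range on the control vector array (141 and 246; 1.75-fold higher in 1 feature), and TP63 was not. TP73 passed the filter only through the PAX2 vector array. YWHAG and TP73 were the 2 of the 81 genes that differed at least 1.5-fold, where 92.3% of all measured genes lay within it.

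**Figure D5:**
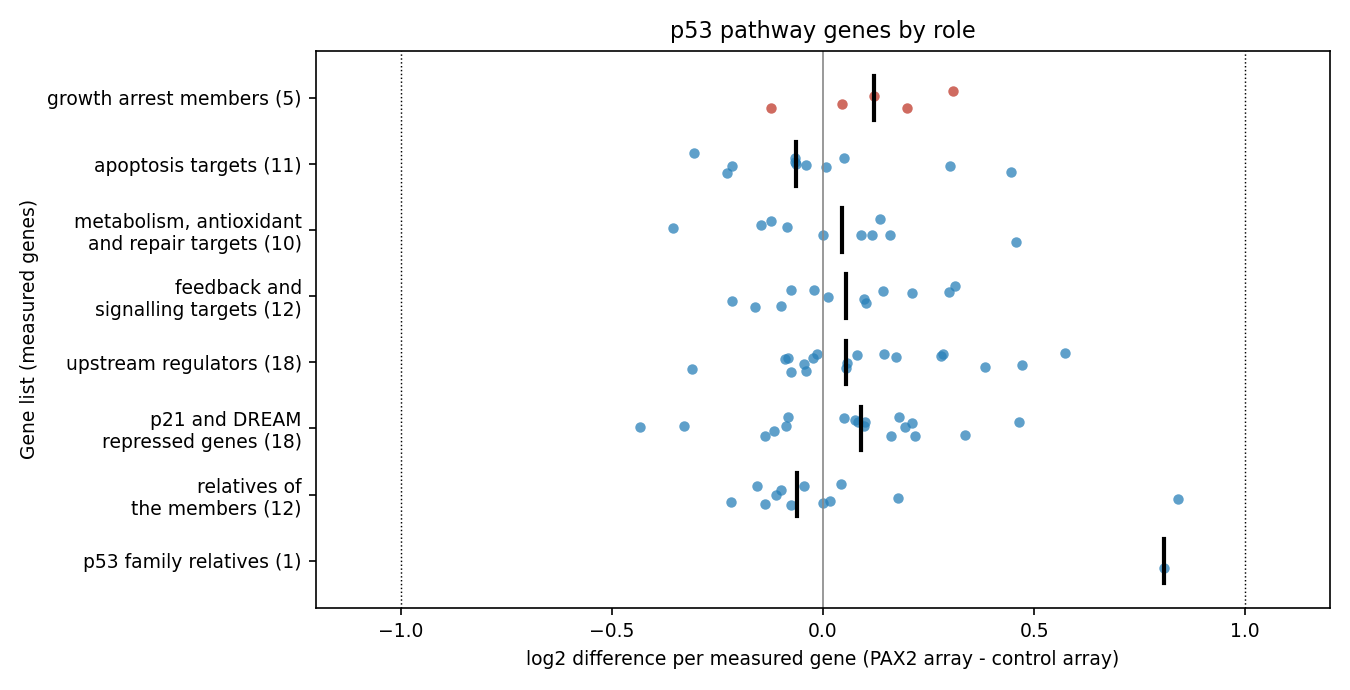
Log2 difference (PAX2 vector array minus control vector array) of each measured gene in the growth arrest set (red) and in 7 lists of other p53 pathway genes (blue), with list medians as black bars, the number of measured genes in brackets and dotted lines at 2-fold. No gene reaches the dotted lines, and YWHAG (0.84) and TP73 (0.81) lie farthest from 0.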

How the data were processed

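Total RNA from 2 cultures was hybridised to 2 single-colour Cy3 NimbleGen arrays, 1 per group. Per the submitters' processing notes the values were made with RMA; the sources used here give neither its version nor its between-array step. The authors deposited linear intensities, 1 per feature. Per the file headers, each comes with its count of probes (3 for 45031 of 45033 features) and HG18 coordinates. A further number per feature, called a standard error, was not used. The series table holds identical intensities.

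Of 45033 features 42947 had a gene name, of which 38916 were renamed through the gene identifier (GRCh38.p14 gene table, names only). A gene's value is the mean log2 over its features; no pseudocount and no further scaling were used. Medians, counts past 2-fold and, for dim values, bounds against the floor were computed in Python 3.11.15 with numpy 2.4.6, pandas 2.3.3 and statsmodels 0.14.6. Medians and counts past 2-fold were tested on simulated data, and the bounds were not. No test was made, because each group holds 1 array. Alternatives were the series table, quantile normalization, centring, an offset of 64, loess (fraction 0.3), the brightest feature, other filters and thresholds of 1.5-fold and 3-fold. Genes named are all 9 members and, per list, the measured genes with the largest difference each way; further markers, YWHAQ and YWHAZ were named after their values were seen. Members, lists, floor and thresholds were chosen with earlier results of these data known. The gene that encodes p53 was not analysed here.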

Additional observations from a re-analysis of the deposited data

How the results depend on the processing

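No paired analysis was possible because there is only 1 array on each side. The count of 0 members past 2-fold was 0 in all 11 alternatives, the thresholds of 1.5-fold and 3-fold included. Of these, the 3-fold threshold and the series table, which holds identical intensities, could not give another count. With the 75th percentile filter only 2 members were measured. The median of the measured members (0.12) ran from 0.018 with the brightest feature of a gene to 0.13 with no filter. Of 62 recomputed member differences 59 moved by less than the spread between features of a gene (0.31). The others were CCNG1 with the brightest feature (-0.33) and with measured features only (-0.31, an alternative added after seeing the data), and MDM4 with the brightest feature (0.057). The 62 include the series table, whose values could not move. Most member differences were themselves smaller than this spread, so a turned sign could stay within it and the tally is a weak check. The sign of CCNG1 also turned with an offset of 64 (-0.010), and that of MDM2 with the brightest feature (-0.021). Listed pathway genes past the threshold were 0 except at 1.5-fold, where they were 2. All genes past 2-fold numbered 266; the number was 159 with an offset of 64, 477 with the brightest feature, 1715 with no filter, 32 with the 75th percentile filter, 462 with measured features only, and 898 at 1.5-fold and 83 at 3-fold. For list medians the tolerance was that spread over the square root of the number of measured genes, and 60 of 62 stayed inside it. The others were the upstream regulators with the brightest feature (-0.041) and the p53 family with no filter (0.48). Centring, quantile normalization and loess moved the split of higher and lower genes from 131 and 135 to 115 and 143, 114 and 144, and 115 and 149. Causes were not tested beyond the fewer or more genes that a filter leaves. Low signal over background limits RRM2B, MDM4 and most MDM2 features.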
